A study of Mus musculus with 2 samples.

Results

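The 39 genes described here are the Hox genes of the Hoxa, Hoxb, Hoxc and Hoxd clusters, taken from the 34745 genes of the tables by their symbols (Hoxa, Hoxb, Hoxc or Hoxd followed by a number). There were 11 of them in Hoxa, 10 in Hoxb, 9 in Hoxc and 9 in Hoxd. They were measured by RNA-seq in LSKs, the bone marrow fraction without lineage markers that carries Sca1 and c-Kit, of Scl/tTA-BCR/ABL (BA) mice of the C57BL/6 strain. In these mice the Scl promoter drives the tetracycline transactivator in hematopoietic stem and progenitor cells, and the transactivator switches on a BA transgene, the fusion oncogene of chronic myelogenous leukemia, once doxycycline is withdrawn. Animals of both groups carried both transgenes. The week-0 library came from mice kept on doxycycline and the week-3 library from mice 3 weeks after its withdrawal, and each library was made from sorted LSKs of 3 mice mixed together. Mice were not sequenced one by one and LSKs were not sorted for the transgene, so a library averages over animals and over cells with and without BA. With 1 library per time point the spread between mice is unknown, no difference between the libraries has a replicate check, and no p-value is given.

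Hox genes encode homeodomain transcription factors that lie in clusters, ordered along the chromosome by paralog position, and genes at the same position in different clusters are the closest relatives. In hematopoiesis, several genes of Hoxa and Hoxb are known to be active in stem and early progenitor cells and to be shut down as cells mature. Hox proteins bind DNA together with cofactors of the Pbx and Meis families, and the Mll methyltransferase complex keeps the clusters active.

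The Hox transcripts of LSKs came almost wholly from Hoxa. The 11 Hoxa genes held 815 of the 846 Hox reads at week-0, a share of 96.3% (exact Clopper-Pearson 95% interval 94.8 to 97.5), and 474 of 493 at week-3, a share of 96.1% (94.0 to 97.7). Within Hoxa the reads lay on Hoxa7, Hoxa9 and Hoxa10, which together took 89.8% of its week-0 reads and 89.5% of its week-3 reads. The summed level of the cluster was nearly the same in both libraries, but its make-up was not, as Hoxa10 was 3.12-fold lower at week-3 while Hoxa9 differed little and Hoxa7 was 1.43-fold higher. Intervals throughout are at 95% and cover counting error alone, not the spread between mice. They treat reads as independent, but the cDNA was amplified, so they may be too narrow even for counting error.

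The week-0 library had a depth of 6356164 reads on genes against 3886695 for week-3, so the week-3 values are the less precise. The limit that a count of 0 allows, 3 reads, was 0.472 CPM (reads scaled to the library total) at week-0 and 0.772 at week-3.

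Hox genes resemble each other most in the homeobox, the stretch of coding sequence for the DNA-binding homeodomain. To show how alike the 8 members with the most reads are there, the same 30 coding bases of the homeobox, from the part that encodes the recognition helix, are given here on the transcript strand (5′ to 3′, GENCODE M21 on GRCm38). Capitals mark bases that differ from Hoxa9.
Hoxa9: tggttccagaaccgcaggatgaaaatgaag
Hoxa10: tggttTcagaaTcgcaggatgaaaCtgaag
Hoxa7: tggttccagaaTcgGCgCatgaaGTGgaag
Hoxa6: tggttccagaaTcgGCgCatgaaGTGgaaA
Hoxb4: tggttccagaaTcgGCgCatgaaGTGgaaA
Hoxa5: tggttccaAaacAgGaggatgaaGTGgaaA
Hoxb5: tggttccagaaccgTCgCatgaaGTGgaag
Hoxa3: tggttccagaaccgcCgCatgaaGTACaag

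Hoxa10 differed from Hoxa9 at 3 of these 30 bases and Hoxa7 at 7. Hoxa6 and Hoxb4, which lie on different chromosomes and at different paralog positions, had the same 30 bases. On the minus strand the stretches lie at chr6:52224277-52224306 in Hoxa9, chr6:52232563-52232592 in Hoxa10, chr6:52215852-52215881 in Hoxa7, chr6:52206434-52206463 in Hoxa6, chr6:52202641-52202670 in Hoxa5 and chr6:52170528-52170557 in Hoxa3. On the plus strand they lie at chr11:96320197-96320226 in Hoxb4 and chr11:96305048-96305077 in Hoxb5. Over the whole homeobox of 180 bases, genes at the same position in different clusters were identical at a median of 80.6% of bases (67.2 to 93.9, 42 pairs), against 61.7% (48.3 to 88.9, 172 pairs) for different positions within a cluster. Among the 276 pairs of transcripts with at least 1 gene of 10 or more reads, the median of the longest shared run was 16 bases and the longest was 52, between Hoxa6 and Hoxb4. Hoxa7 shared a run of 47 bases with each of those genes. How the counting treated a read that matched more than 1 gene is not given in the sources used here. The small counts of Hoxa6 and Hoxb4 are therefore uncertain to the extent that whole reads fell within their shared run. As sequenced, the reads were longer than that run, but they were then trimmed, and their lengths after trimming were not examined.

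Reads were found on 20 of the 39 Hox genes, 19 at week-0 and 12 at week-3. The other 19 genes were listed at 0 in both libraries. A gene was called higher where the ratio of week-3 FPKM (read fragments scaled by exon length and by the reads of the library) to week-0 FPKM reached 2 or more, lower where it was 0.5 or less, and in either case if the counting interval of the ratio did not hold 1. Of the Hox genes, 8 reached the minimum of 10 reads over both libraries, 12 had fewer reads and 19 had none. Hoxb4 was called higher, which is 1 of 8, where 10.5% of the 13689 genes with at least 10 reads were called higher. Hoxa10, Hoxa3 and Hoxb5 were called lower, which is 3 of 8, where 14.9% of all genes were. Hoxa3, Hoxb4 and Hoxb5 reached the minimum through a single library, so these counts say little about the 39 genes together. The median log2 ratio was -0.01 over the 8 genes and 0.05 over all genes tested. In edgeR's exact test with an assumed coefficient of variation of 0.1 between libraries, Hoxb4, Hoxa10 and Hoxa3 were called and Hoxb5 was not. With 0.4 in its place, 0 Hox genes were called in either direction.

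**Figure D1:**
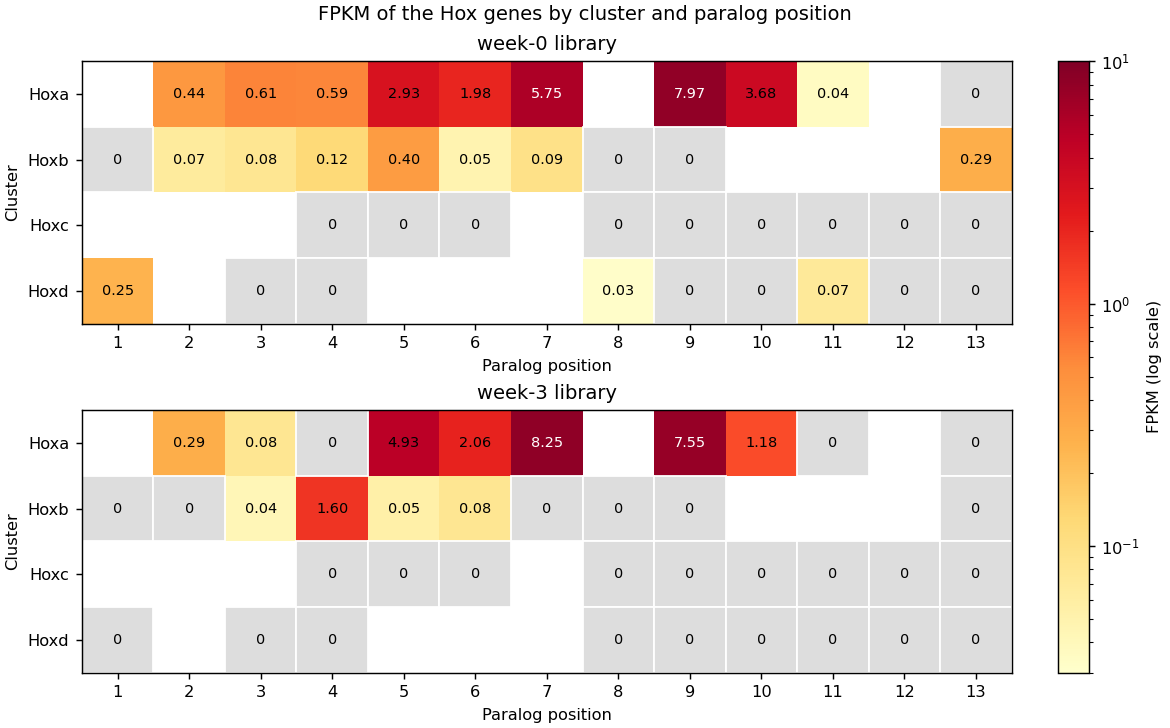
FPKM of the Hox genes in the week-0 library (top) and the week-3 library (bottom), with clusters as rows, paralog positions as columns and colour on a log scale; grey cells are genes listed at 0 and white cells are positions with no value shown. The values above 1 FPKM lie in Hoxa between positions 5 and 10, with Hoxb4 at week-3 as the exception, and the Hoxc row is at 0 in both libraries.

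LSK sorting markers were present in both libraries, with Kit at 16.9 FPKM at week-0 and 11.5 at week-3, Ly6a, which encodes Sca1, at 19.8 and 14.8, and Cd34 at 60.9 and 39.9. All 4 genes of the LSK marker list had counting intervals below 0, and the fourth, Flt3, was called lower at 157 and 38.9 FPKM. Markers of other cell states also differed between the libraries. The 6 mast cell and basophil markers went from 548 reads to 9059, with Mcpt4 at 0 at week-0, and all 6 were called higher. The 5 myeloid progenitor markers went from 20982 reads to 60451, with 4 called higher. The 6 long-term stem cell markers went from 2190 reads to 379, with 4 called lower and Slamf1 called higher. Reads on the 4 B lineage markers went from 5252 to 100, with 2 of 3 tested called lower. Those on the 4 erythroid markers went from 4300 to 177, with 3 called lower. The 4 T lineage markers held 14 and 3 reads, and the 4 megakaryocyte markers 913 and 798, with none called. Read sums in this paragraph are not scaled to the library totals, and the week-3 total was the lower. In summed FPKM the megakaryocyte markers were at 46.4 at week-0 and 47.2 at week-3. Of these 4 genes, 1 had a counting interval above 0 (Itga2b, log2 ratio 0.93) and 2 had intervals below 0. Of the called markers, Cma1, Fcer1a, Tpsab1, Mcpt4, Fgd5 and Cd79a reached the minimum of 10 reads through a single library, the one where they were higher. In edgeR's exact test with an assumed coefficient of variation of 0.1 between libraries, Slamf1 was not called. With 0.4, 0 of the long-term stem cell and 0 of the myeloid progenitor markers were called, while 5 mast cell and basophil markers stayed higher and 2 B lineage and 2 erythroid markers lower. In bulk RNA, fewer cells of a type and less RNA per cell cannot be told apart, and the part of these shifts in the Hox values was not tested.

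Summed over the cluster, Hoxa took 128 CPM at week-0 and 122 at week-3. The log2 ratio was -0.07 (-0.24 to 0.09), which leaves a change of the cluster sum not detectable at this depth. Hoxb held 25 and 19 reads, with a log2 ratio of 0.31 (-0.63 to 1.23). No read was counted on any Hoxc gene, which allows a cluster sum of up to 0.472 CPM at week-0 and 0.772 at week-3. Hoxd held 6 reads at week-0 and none at week-3. Over the rows that overlap no other row, the log2 ratio of the summed reads was -0.40 in Hoxa and 1.90 in Hoxb. These sums hold fewer genes and leave out Hoxa7 and Hoxb5, so the near-equal Hoxa sum depends on rows that overlap others. Over all 39 genes the sums were 133 and 127 CPM, with a log2 ratio of -0.07 (-0.23 to 0.09).

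By paralog position, stretches of Hoxa differed in opposite directions between the libraries. Hoxa2 to Hoxa4 held 36 reads at week-0 against 4 at week-3, most of them on Hoxa3, a log2 ratio of -2.46 (-4.41 to -0.98). The middle stretch, Hoxa5 to Hoxa7, held 249 and 221 reads, a log2 ratio of 0.54 (0.27 to 0.80). The 5′ stretch, Hoxa9 to Hoxa13, held 530 and 246 reads, a log2 ratio of -0.40 (-0.62 to -0.18). In that stretch the difference came from Hoxa10, since Hoxa9 was close to equal, Hoxa11 had 1 read in all and Hoxa13 had none.

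Hoxa9 (ENSMUSG00000038227, chr6:52223100-52231089, minus strand), a stem and progenitor cell regulator and a well-known leukemia oncogene with its cofactor Meis1, had the most reads of any Hox gene. It had 371 reads and 7.97 FPKM at week-0, and 215 reads and 7.55 FPKM at week-3. These levels stood at percentile 75.7 of the genes above 0 at week-0 and 73.8 at week-3. The log2 ratio was -0.08 (-0.33 to 0.17), so a difference was not detectable at this depth. Its share of the Hoxa reads was 45.5% (42.1 to 49.0) at week-0 and 45.4% (40.8 to 49.96) at week-3.

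Hoxa10 (ENSMUSG00000000938, chr6:52231197-52240854, minus strand) is the next gene 5′ of Hoxa9 and is known as a regulator of myeloid differentiation. Its reads went from 158 at week-0 to 31 at week-3 and its level from 3.68 FPKM to 1.18. The week-3 level was 3.12-fold lower, a log2 ratio of -1.64 (-2.25 to -1.08), and Hoxa10 is the Hox gene whose call rests on the most reads. It went from percentile 62.8 of the genes above 0 to percentile 40.8. None of its exon bases is shared with another annotated gene. Within the pair of neighbours, Hoxa10 took 29.9% of the Hoxa9 and Hoxa10 reads at week-0 (26.0 to 34.0) and 12.6% at week-3 (8.73 to 17.4), and these intervals do not overlap. The ratio of Hoxa9 FPKM to Hoxa10 FPKM was 2.17 at week-0 and 6.40 at week-3. With overlapping exons counted once (merged exons of GENCODE M21), which put Hoxa10 at 7.60 and 2.44, it was 1.38 and 4.06. The ratio rests on the exon lengths used but not on the scaling between libraries, and its change between the libraries is the same on either length.

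Hoxa7 (ENSMUSG00000038236, chr6:52214491-52221854, minus strand), the 3′ neighbour of Hoxa9 and also a target of Mll fusion proteins in leukemia, had 203 reads and 5.75 FPKM at week-0 and 178 reads and 8.25 FPKM at week-3. The week-3 level was 1.43-fold higher, with a log2 ratio of 0.52 (0.22 to 0.82), so the counting interval lay above 0 while the ratio stayed under the limit of 2. Its share of the Hoxa reads was 24.9% (22.0 to 28.0) at week-0 and 37.6% (33.2 to 42.1) at week-3. As deposited, Hoxa9 stood above Hoxa7 at week-0 and below it at week-3, with a ratio of Hoxa9 to Hoxa7 of 1.39 and 0.916. That order rests on the exon length behind the FPKM. The deposited values divide by the sum of all distinct exons of a gene, in which overlapping exons are counted more than once, and by merged exons of GENCODE M21 Hoxa7 was at levels of 11.1 and 15.9 on the same scale and Hoxa9 at 10.5 and 9.91. By merged exons Hoxa7 was therefore above Hoxa9 in both libraries, and at week-3 Hoxa10 (2.44) was above Hoxa6 (2.06), the reverse of the deposited order. Ratios between the libraries are the same on either length. Of the Hoxa7 exon bases, 20.4% lie opposite exons of the antisense gene Hoxaas3, and since strand use in the counting is not given in the sources used here, sense and antisense reads cannot be told apart there.

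Hoxa5 and Hoxa6 lay next to Hoxa7 and had lower levels. Hoxa5 (ENSMUSG00000038253, chr6:52201754-52204587, minus strand), known in hematopoiesis for a part in the choice between myeloid and erythroid fate, had 35 reads and 2.93 FPKM at week-0 and 36 reads and 4.93 FPKM at week-3. The log2 ratio of Hoxa5 was 0.75 (0.04 to 1.46), a 1.68-fold higher level that is under the limit of 2, with a counting interval just above 0. TMM scaling, which shifted the median of all genes by -0.11, moves ratios by more than that margin. Hoxa6 (ENSMUSG00000043219) had 11 and 7 reads, at 1.98 and 2.06 FPKM, and a log2 ratio of 0.06 (-1.55 to 1.56), too wide to place. Within Hoxa, in order of deposited level, Hoxa9, Hoxa7, Hoxa10, Hoxa5 and Hoxa6 led at week-0, and Hoxa7, Hoxa9, Hoxa5, Hoxa6 and Hoxa10 at week-3. Neighbours whose Poisson intervals overlapped were Hoxa10 and Hoxa5, and Hoxa5 and Hoxa6, at week-0. At week-3 the intervals of every pair of neighbours among these 5 genes overlapped.

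**Figure D2:**
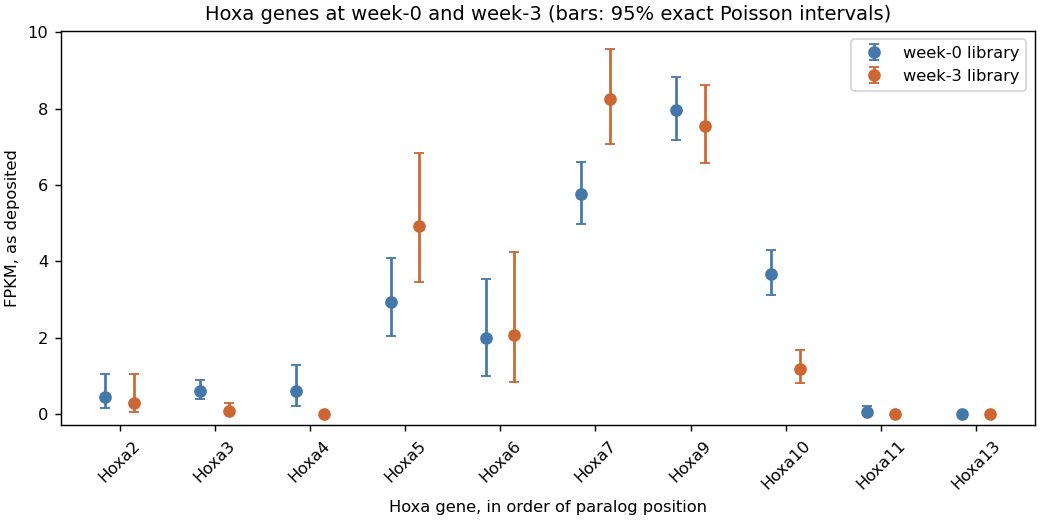
Deposited FPKM of the Hoxa genes reported here in order of paralog position, with the week-0 library in blue and the week-3 library in orange; bars are 95% exact Poisson intervals from the reads and cover counting error only. The bars of Hoxa10 (3.68 and 1.18) and of Hoxa7 (5.75 and 8.25) are apart in opposite directions, and those of Hoxa9 overlap.

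**Figure D3:**
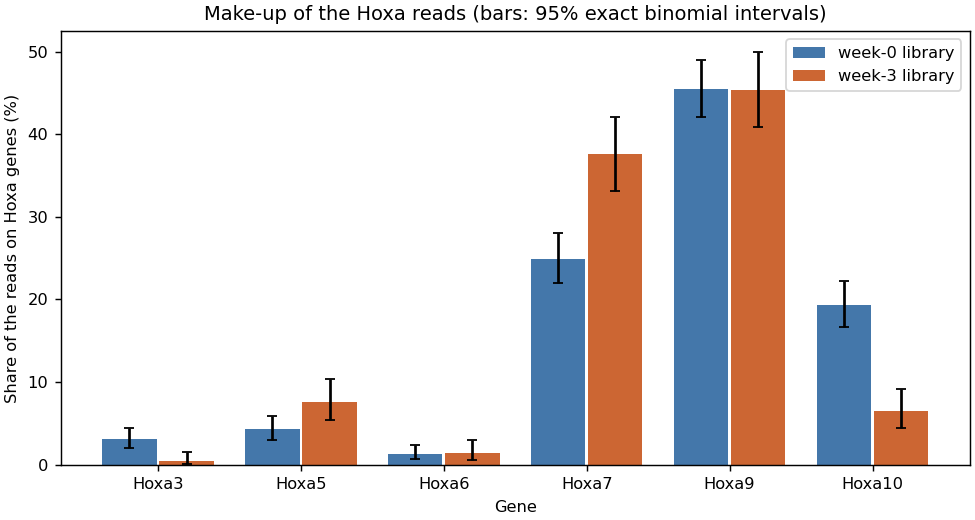
Share of the reads on Hoxa genes taken by the 6 Hoxa genes with at least 10 reads, in percent, for the week-0 library (blue) and the week-3 library (orange); bars are 95% exact binomial intervals. Hoxa9 holds 45.5% and 45.4%, Hoxa7 goes from 24.9% to 37.6% and Hoxa10 from 19.4% to 6.54%.

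The 3′ Hoxa genes had few reads. Hoxa3 (ENSMUSG00000079560, chr6:52169062-52213336, minus strand) had 25 reads and 0.608 FPKM at week-0 and 2 reads and 0.0795 FPKM at week-3. The week-3 level was 7.64-fold lower, a log2 ratio of -2.93 (-6.06 to -0.93), and its share of the Hoxa reads was 3.07% (1.99 to 4.50) at week-0 and 0.422% (0.0511 to 1.52) at week-3. The Hoxa3 row spans several other genes, and 27.1% of its exon bases lie in exons of Hoxaas2, Hoxaas3 and other annotated genes, so reads of Hoxa3 and of those genes cannot be fully told apart. Hoxa2 had 5 and 2 reads, and Hoxa4 had 6 and 0, and the counting intervals of both ratios held 1. At the 5′ end, Hoxa11 had 1 read at week-0 and 0 at week-3, while Hoxa13 had none.

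In Hoxb, the small number of reads lay on different genes in the 2 libraries. Hoxb4 (ENSMUSG00000038692, chr11:96318267-96321638, plus strand), known for expanding hematopoietic stem cells when overexpressed, had 2 reads and 0.123 FPKM at week-0 and 16 reads and 1.60 FPKM at week-3. The week-3 level was 13.1-fold higher with a counting interval from 3.08 to 117, a log2 ratio of 3.71 (1.62 to 6.87). Hoxb5 (ENSMUSG00000038700, chr11:96303336-96306121, plus strand), described as a marker of long-term stem cells, had 12 reads and 0.403 FPKM at week-0 and 1 read and 0.0549 FPKM at week-3. That was 7.34-fold lower, a log2 ratio of -2.88 (-8.29 to -0.12), and the call rests on the upper end of an interval close to 0. Hoxb4 thus took 8% of the Hoxb reads at week-0 and 84.2% (60.4 to 96.6) at week-3, while Hoxb5 took 48% and 5.26%. The lower Hoxb5 reads stood beside 4 of 6 long-term stem cell markers called lower (0 of 6 with an assumed coefficient of variation of 0.4), with 2190 and 379 reads over that list, and the part of such cells in the Hoxb5 value was not tested. Hoxb4 shares no exon base with another annotated gene, and Hoxb5 shares 3.59% of its exon bases with its antisense gene Hoxb5os.

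The other Hoxb genes were at the limit of the depth. Hoxb3 had 3 reads at week-0 against 1 at week-3, Hoxb2 had 2 and 0, Hoxb6 had 1 and 1, Hoxb7 had 1 and 0, and Hoxb13 had 4 and 0. Hoxb1, Hoxb8 and Hoxb9 were listed at 0 in both libraries. In Hoxd, reads were seen at week-0 only, with 3 on Hoxd1, 1 on Hoxd8 and 2 on Hoxd11, and Hoxd3, Hoxd4, Hoxd9, Hoxd10, Hoxd12 and Hoxd13 were listed at 0. The Hoxc genes listed at 0 were Hoxc4, Hoxc5, Hoxc6, Hoxc8, Hoxc9, Hoxc10, Hoxc11, Hoxc12 and Hoxc13, that is all 9. With no read, a level below 0.472 CPM at week-0 or 0.772 at week-3 was not detectable for any of these genes.

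**Figure D4:**
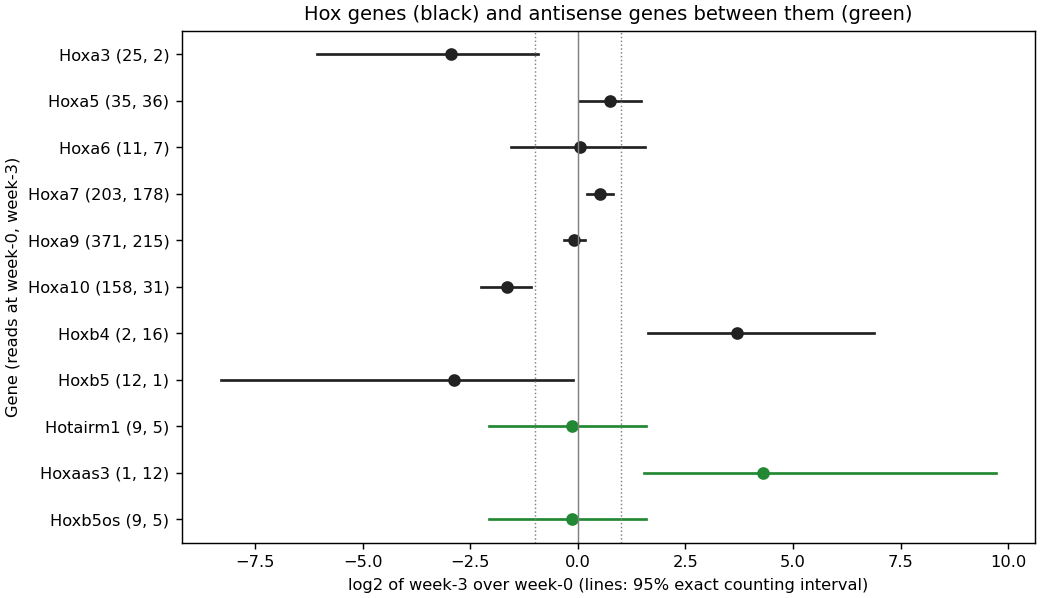
Log2 ratio of FPKM at week-3 over week-0 for the 8 Hox genes with at least 10 reads (black) and the 3 antisense genes between them with at least 10 reads (green), with reads of both libraries in brackets; lines are 95% exact counting intervals and dotted lines mark ratios of 0.5 and 2. Hoxa10 has the narrowest interval of the called genes, and those of Hoxa3, Hoxb4, Hoxb5 and Hoxaas3 are wide because each has at most 2 reads in 1 library.

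The clusters also hold other genes. The tables had 22 rows between the first and last Hox gene of a cluster, with 31 and 34 reads in all, and 3 of them had at least 10 reads. Hoxaas3 (ENSMUSG00000085696, chr6:52175217-52215076, plus strand), a noncoding RNA transcribed on the strand opposite to Hoxa3 and Hoxa7, had 1 read at week-0 and 12 at week-3. Its log2 ratio of 4.29 (1.54 to 9.71) was called higher, but it reached 10 reads through the week-3 library alone and is not called with an assumed coefficient of variation of 0.4. Its exons lie opposite part of Hoxa7 and Hoxa3. Hotairm1, a noncoding RNA of the Hoxa cluster that is known from myeloid cells, had 9 and 5 reads, a log2 ratio of -0.14 (-2.06 to 1.59). Hoxb5os had the same counts of 9 and 5 and the same ratio.

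The miRNAs of the miR-196 and miR-10 families, whose genes lie in Hox clusters, have known sites in Hox transcripts. Their mature sequences, from RefSeq on GRCm38.p6, are given here because their genes lie inside the measured clusters. Capitals mark the seed, bases 2 to 8.
miR-196b-5p: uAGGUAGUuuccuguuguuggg
miR-196a-5p: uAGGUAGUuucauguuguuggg
miR-10a-5p: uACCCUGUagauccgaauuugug
miR-10b-5p: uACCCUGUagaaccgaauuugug

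miR-196b-5p lies at chr6:52230129-52230150 on the minus strand, inside the Hoxa9 row, and miR-10a-5p at chr11:96317186-96317208 on the plus strand, between Hoxb5 and Hoxb4. miR-196a-5p comes from chr11:96265187-96265208 and chr15:102973365-102973386, and miR-10b-5p from chr2:74726074-74726096, all on the plus strand. The mature miRNAs were not analysed here. A perfect match of 7 bases to the miR-196 seed (ACTACCT, on the transcript strand) was found in 8 of 38 Hox 3′ UTRs, those of Hoxa4, Hoxa5, Hoxa7, Hoxa9, Hoxb1, Hoxb6, Hoxb7 and Hoxc8, and in 5.24% of 19157 3′ UTRs of all genes. The match to the miR-10 seed (ACAGGGT) was found in 3 of 38, that of Hoxa3 among them, and in 10.8% of all. Such a match is a description of the letters and not evidence of a working site. The Hoxa7 UTR held 4 matches, and the windows of the Hoxa7, Hoxa9, Hoxa5 and Hoxa3 matches are printed on the transcript strand with the match in capitals, since these are the genes with a match that had at least 10 reads.
Hoxa7, miR-196, chr6:52215400-52215422: aggcacagccaaaatACTACCTa
Hoxa7, miR-196, chr6:52215363-52215385: gagaggcactcccaaACTACCTa
Hoxa7, miR-196, chr6:52215231-52215253: caaaccatgatcaatACTACCTa
Hoxa7, miR-196, chr6:52215210-52215232: tactactagccctaaACTACCTa
Hoxa9, miR-196, chr6:52223900-52223922: gcaaaaggaaagaaaACTACCTt
Hoxa5, miR-196, chr6:52202118-52202140: gatatttttattcaaACTACCTa
Hoxa3, miR-10, chr6:52169653-52169675: actctttgataagaaACAGGGTa

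The genes with the miR-196 match that had at least 10 reads were Hoxa5, Hoxa7 and Hoxa9, with log2 ratios of 0.75, 0.52 and -0.08. Hoxa10 had neither match in its 3′ UTR.

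The genes known to act with or on the Hox genes were read from 4 lists, of 32 genes, of which 27 had at least 10 reads. Of these 27 genes, 2 were called higher and 6 lower, with a median log2 ratio of -0.11, where 10.5% of all genes tested were called higher and 14.9% lower and their median was 0.05. With an assumed coefficient of variation of 0.4 in edgeR's exact test, Cybb was the single gene of these lists still called.

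Among the DNA-binding cofactors 1 gene was called. Of 7 tested, 0 were called higher and Meis3 was called lower, with a median log2 ratio of -0.18. Among all genes tested, 10.5% were called higher and 14.9% lower. In edgeR's exact test with an assumed coefficient of variation of 0.1 or 0.4, 0 were called higher. That test called Meis3 lower with 0.1 but not with 0.4. Meis1, the partner of Hoxa9 in leukemia, had 903 reads and 6.33 FPKM at week-0 and 324 reads and 3.71 FPKM at week-3. The log2 ratio of Meis1 was -0.77 (-0.96 to -0.58), below 0 but short of the limit. Pbx4, which binds DNA with Hox proteins, was at 8.82 and 6.72 FPKM. Meis3 was low throughout, with 25 reads at week-0 against 4 at week-3, and it reached the read minimum through the week-0 library alone. Meis2 and Pknox2 had 3 reads or fewer in all.

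The Mll complex and the elongation factors that work with it differed within the list. Of 11 tested, 0 were called higher and 3 lower, with a median log2 ratio of -0.10. Over all genes tested, 10.5% were called higher and 14.9% lower. In edgeR's exact test 0 were called higher, and the same 3 were lower with an assumed coefficient of variation of 0.1. With 0.4 in its place, 0 were called lower. Dot1l, a histone H3 methyltransferase of active Hox genes, was at 14.8 FPKM at week-0 and 5.65 at week-3, from 1260 and 295 reads. Aff1 and Mllt3, parts of the elongation machinery and partners in Mll fusions, were at 15.1 and 5.30 FPKM and at 1.34 and 0.538 FPKM. Kmt2a itself, which encodes Mll, was at 5.75 and 4.54 FPKM, a log2 ratio of -0.34 that was not called. The core subunits Wdr5, Ash2l and Rbbp5 had log2 ratios of 0.29, -0.04 and -0.02, and Men1, which links Mll to its targets, 0.19. Mllt10, a partner of Dot1l, was at 4.37 and 6.81 FPKM, 1.56-fold higher and under the limit.

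The caudal factors Cdx1, Cdx2 and Cdx4, which act upstream of Hox genes in the embryo, had 3 reads in all at week-0 and 0 at week-3.

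Genes described as targets of Hoxa9 with Meis1 went both ways. Of 9 tested, 2 were called higher, 2 lower and 5 neither, with a median log2 ratio of -0.03. The shares over all genes tested were 10.5% higher and 14.9% lower, and counts this small say little about the list. Flt3, the receptor of lymphoid-primed progenitors and also on the list of LSK markers, was at 157 FPKM at week-0 and 38.9 at week-3. Erg, a stem cell transcription factor, was at 10.3 and 4.05. Myb, a regulator of progenitor growth, was at 19.8 and 41.9 FPKM, and its call is lost under scaling by TMM or by the size factors of DESeq2, which put its ratio under 2. Cybb, a subunit of the phagocyte oxidase, was at 0.876 and 9.53 FPKM, and it is a gene of maturing myeloid cells, whose progenitor markers held 20982 and 60451 reads; the part of such cells in its value was not tested. Sox4, Lmo2, Igf1r, Pim1 and Bcl2 had log2 ratios of -0.11, -0.33, -0.03, 0.24 and 0.61.

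**Figure D5:**
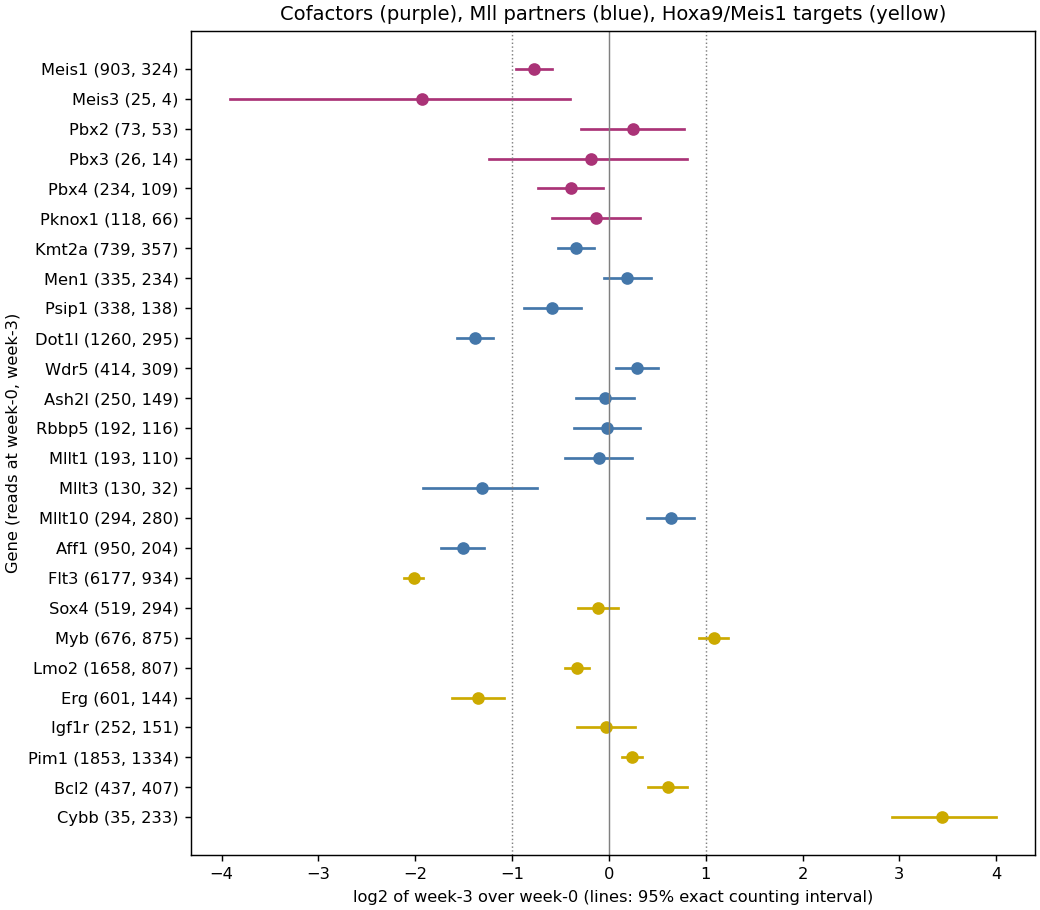
Log2 ratio of FPKM at week-3 over week-0 for the reported genes with at least 10 reads in the lists of cofactors (purple), Mll complex and partners (blue) and Hoxa9 and Meis1 targets (yellow), with reads of both libraries in brackets; lines are 95% exact counting intervals and dotted lines mark ratios of 0.5 and 2. Meis3, Dot1l, Mllt3, Aff1, Flt3 and Erg lie past the lower limit and Myb and Cybb past the upper.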

How the data were processed

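RNA of sorted BM LSKs was measured as 1 library at week-0 and 1 at week-3. The authors made cDNA with a low-input SMARTer kit. Paired-end reads were trimmed by the authors and aligned to GRCm38 (mm10) by TopHat2, version 2.0.9 per the submitters' processing notes. The deposited counts are whole numbers of reads per gene without normalization. The deposited FPKM are scaled by the authors to the reads on genes and to exon length. The exon length behind the FPKM equalled, within 1%, the sum of distinct exons in GENCODE M21 for 20 of 20 Hox genes with reads and for 70.2% of 12643 genes with at least 10 reads at week-0, and equalled merged exons for 13.6%. The counting tool, annotation release and strand setting are not given in the sources used here, and neither is the dispersion given to edgeR.

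The members and lists were chosen with earlier results of these data known. Named are the Hox genes, and those genes of the pathway lists and rows between Hox genes that have at least 10 reads. Lower ones are given by reads. Results for a few further genes, which stay in the sums and counts, are not reported here. Ratios are of FPKM without a pseudocount. Counting intervals are exact Clopper-Pearson intervals of the split of a gene's reads between libraries, or exact Poisson intervals for a level. The libraries held 6356164 (week-0) and 3886695 (week-3) reads on genes. Calls were made over the whole table. The study's edgeR test cannot estimate variation from 1 library per time point, so edgeR 4.0.16 with a fixed biological coefficient of variation served as an alternative, as did TMM and the size factors of DESeq2 1.42.0 in R 4.3.3. Other alternatives were read minimums, pseudocounts, fold limits and rows that overlap no other row. Levels by merged exons were added after seeing the data. On simulated counts of 13735 genes the procedure called 198 of 200 genes changed by 4 times or 0.25 times and 109 unchanged genes, and 96.0% of intervals held the true ratio. The spread between mice was not measured, so these figures give no error rate for the calls in these data. Seed matches were searched in 3′ UTRs of at least 50 bases, 1 per gene, from the transcript with the longest coding part. Scripts ran in Python 3.11.15 with scipy 1.17.1, pandas 2.3.3, numpy 2.4.6 and matplotlib 3.10.9.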

Additional observations from a re-analysis of the deposited data

How the results depend on the processing

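No paired analysis was possible because each time point has 1 library, and for the same reason no replicate could be left out. Of 43 alternatives to the main values, 31 were labelled the same (for a ratio within its counting interval, for a count within 1.5 times), 12 moved and 0 reversed. A median has no counting interval. With at least 30 reads the median log2 ratio of the Hox genes went from -0.01 to 0.22, a change of sign that was labelled the same. TMM shifted the median log2 ratio of all genes by -0.11 and the size factors of DESeq2 by -0.09, and both called the same 4 Hox genes but not Myb, so that 2 pathway genes in place of 3 were higher. With at least 30 reads, 4 Hox genes were tested, 0 were higher and 1, Hoxa10, was lower, since the other called genes have fewer reads. With no read minimum the median log2 ratio of 20 Hox genes was -2.26, as genes with reads at week-0 only enter it. A fold limit of 1.5 gave 2 higher Hox genes, Hoxa5 with Hoxb4, and 5 higher pathway genes where the limit of 2 gave 3, rows between Hox genes included. In edgeR's exact test with an assumed coefficient of variation of 0.1, Hoxb4 was higher and Hoxa10 and Hoxa3 lower. With 0.4 in its place, 0 Hox genes were higher and 0 lower, and of the pathway genes 1 was higher and 0 lower, so each Hox call depends on the variation between mice being small, which was not measured. Keeping only the Hox rows that overlap no other row left 3 tested, with Hoxb4 higher and 1 lower, Hoxa10. Over all such rows, tested or not, the log2 ratio of the Hoxa sum moved to -0.40 and of the Hoxb sum to 1.90. Hoxa7 and Hoxb5 were among the rows left out, while Hoxa9, Hoxa10 and Hoxb4 stayed in. A pseudocount of 1 FPKM moved Hoxa3 to -0.57, Hoxb5 to -0.41 and Hoxb4 to 1.21 on the log2 scale; for Hoxb5 that still lies in its wide counting interval. Of 42 alternatives for single genes, 34 were the same and 8 moved, 6 of them levels by merged exons.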
